A study of Mus musculus with 6 samples.

Results

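The simple epithelial keratins are Krt7, Krt8, Krt18 and Krt19, the keratin genes of single-layered and glandular epithelia. The 4 genes were chosen by name, with earlier results of these data known, out of 11038 genes with an adjusted p-value in the authors' comparison. Each gene is given by its RefSeq transcript with the highest base mean, which is the normalized count averaged over the libraries. The values that chose them are the same fold changes and adjusted p-values given below, so these are a description of the 4 genes and no test of them. All 4 genes had an adjusted p-value, and none was lost to the filter on low values.

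Keratins form filaments only as pairs of a type I and a type II protein. Krt8 (type II) and Krt18 (type I) are the first keratin pair of the embryo and the usual pair of simple epithelia such as liver and gut, Krt7 (type II) is typical of ducts and glands, and Krt19 (type I), which lacks most of the tail domain, is found in ducts and in hair follicle stem cells. In skin the stratified epidermis is built instead on Krt5 and Krt14 in its basal layer and on Krt1 and Krt10 above it. Krt8, Krt18 and Krt19 mark the fetal periderm and the Merkel cells, the touch receptors of the epidermis.

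The cells were primary epidermal keratinocytes of wild type C57BL/6 pups, taken at postnatal day 1 to 3 and grown to partial confluence with 0.05 mM calcium, a concentration that holds back differentiation. In one group (3 libraries) they were transfected with pro-miR-148a, which supplies the microRNA miR-148a, and in the other (3 libraries) with a control small RNA named miR-Control. The concentration given is 200 nM, and RNA was taken 48 h after transfection. The titles of miR-148a replicates 1 and 3 carry the same sample number, 1, while the 3 control titles carry different ones. Whether those 2 libraries are separate samples could not be checked without values per library, and the labels name no culture or animal, so the authors' p-values may measure technical spread. The deposited table holds 42885 transcripts and no value for any single library. A value per library, the depth of a library and the overlap of the groups therefore cannot be given, and the errors given are the standard errors (SE) that the authors list beside each log2 fold change.

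Which group stands on top of the fold changes is not written in the expression table, and every direction below rests on a reading of it. A microRNA lowers transcripts whose 3' untranslated region (UTR) pairs with its seed, bases 2 to 8. The seed of miR-148a-3p, in capitals below as RefSeq gives it (GRCm38.p6), is shared by its family members miR-148b-3p and miR-152-3p, and is shown because it defines the sites used to read the sign.
miR-148a-3p: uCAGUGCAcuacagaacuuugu
miR-148b-3p: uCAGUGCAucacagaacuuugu
miR-152-3p: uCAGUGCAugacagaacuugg

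Genes were sorted by the best site in their longest 3' UTR: TGCACTGA (an 8mer), TGCACTG (7mer-m8), GCACTGA (7mer-A1) or GCACTG (6mer). The 406 genes with an 8mer had a median log2 fold change of 0.11 as deposited, against -0.01 for the 6253 genes with no site. In each of 5 bins of UTR length the genes with an 8mer had the higher deposited median. The deposited values were therefore read as control over miR-148a, the order in which the name of the deposited table puts the groups, and all signs are turned below so that a positive value is higher with miR-148a. With the sign turned, 29.3% of the 8mer genes were lower and 11.6% higher by the authors' adjusted p of 0.05, against 16.1% lower and 18.97% higher among genes with no site. The medians differ by only 0.12 on the log2 scale, while the deposited direction of the 4 keratins is the same for all of them. If the table were read the other way, all 4 would be lower with miR-148a, by the same folds.

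**Figure D1:**
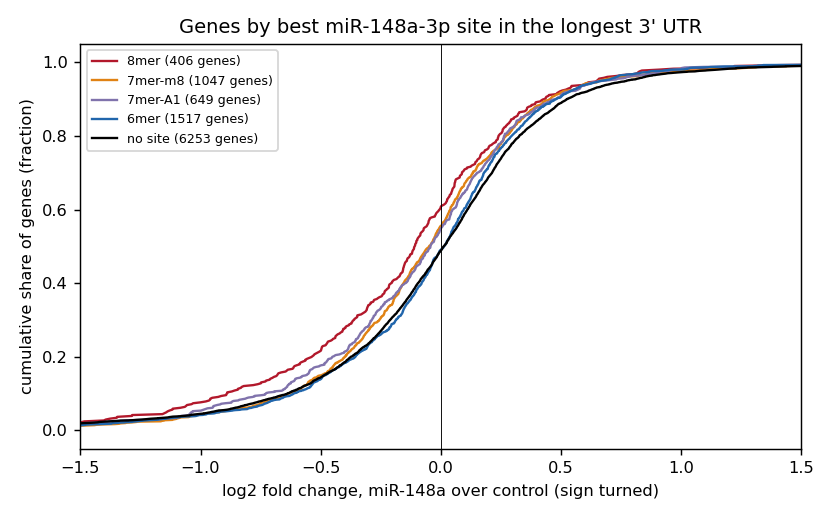
Cumulative share of genes (vertical axis, fraction) at or below each log2 fold change (horizontal axis, miR-148a over control, sign turned), by the best miR-148a-3p site in the longest 3' UTR. The curve of the 406 genes with an 8mer lies to the left of the curve of the 6253 genes with no site; the difference of their medians is -0.12.

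The 4 keratins were themselves nearly free of such sites. The annotated 3' UTRs of Krt8 (242 bases), Krt18 (66 bases) and Krt19 (103 bases) held none of the 4 site types. The 3' UTR of Krt7 (2648 bases) held 1 GCACTG, which starts at base 1863 of the UTR (its first base being 1), and no longer match. Genes whose best site was a 6mer had a median log2 fold change of 0.01, the same to 2 decimals as genes with no site.

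By the authors' deposited table all 4 simple epithelial keratins were higher with miR-148a, past an adjusted p of 0.05 and by more than 2-fold. Among all 11038 genes, 16.7% were higher and 16.8% lower by that adjusted p, and with a fold over 2 as well 2.31% were higher and 4.48% lower. Of the 6423 genes whose base mean was 100 or more, 26.4% were higher and 23.4% lower. Since the genes were chosen with these values known, nothing is read from the count. In bulk RNA more cells of a type and more RNA per cell cannot be told apart.

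Krt19 had the largest difference of the 4. The authors' deposited table lists its transcript NM_008471 at a base mean of 564, with a log2 fold change of 3.95 ± 0.16 SE, or 15.5-fold (95% interval from the SE 12.5 to 19.3, adjusted p = 2.4e-130). It was the highest log2 fold change of all 11038 genes. A second Krt19 transcript, NM_001313963, stood at a base mean of 0.575 with no adjusted p (authors' deposited table). The sources used here do not give how reads shared by both transcripts were counted, so the level of Krt19 describes the transcript listed and may understate the gene.

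Krt8, the type II partner of Krt18, was listed at a base mean of 1056 and a log2 fold change of 2.47 ± 0.14 SE (authors' deposited table, NM_031170, 5.54-fold, interval 4.56 to 6.73, adjusted p = 8.52e-65). It ranked 15th of the 11038 genes from the highest log2 fold change. A Krt8 pseudogene, Krt8-ps, is annotated in the mouse, and reads that it shares with Krt8 could be split between them. Krt18 was listed at a base mean of 1310 and a log2 fold change of 1.71 ± 0.12 SE (authors' deposited table, NM_010664, 3.27-fold, interval 2.77 to 3.85, adjusted p = 2.17e-43). Its rank from the highest was 66.

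Krt7 was the most strongly counted of the 4. Its transcript NM_033073 was listed at a base mean of 12978 and a log2 fold change of 1.72 ± 0.08 SE (authors' deposited table, 3.29-fold, interval 2.94 to 3.68, adjusted p = 6.51e-95). It ranked 62nd from the highest log2 fold change and 301st by base mean. At this base mean its SE was the smallest of the 4, close to the median SE of 0.08 over genes with a base mean of 1000 or more.

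The size of the difference was not shared by the 4 genes. Krt19 lay above Krt8 by 1.48 on the log2 scale (interval 1.06 to 1.91), above Krt7 by 2.24 (1.88 to 2.59) and above Krt18 by 2.25 (1.85 to 2.64). Krt8 lay above its partner Krt18 by 0.76 (0.39 to 1.13) and above Krt7 by 0.75 (0.43 to 1.08). Krt7 and Krt18 differed by 0.01 (-0.28 to 0.29). These intervals combine the authors' SEs as if the errors of 2 genes were independent, which values from the same libraries need not be. The order of the differences was thus Krt19, then Krt8, then Krt7 and Krt18, and the last pair did not differ beyond its error.

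Group levels can be derived from the base mean and the fold change if both groups count equally and the fold is the ratio of their means. The sources used here do not say whether the authors' fold changes at low counts were drawn toward 0. The largest SE of a tested gene was 0.39, and the Krt19 transcript at a base mean of 0.575 had an SE of only 0.15. The fold may therefore not be that ratio. The levels are derived values, not measurements, and carry no spread. For Krt19 they came to a mean normalized count of 1059 with miR-148a and 68.3 in control, and for Krt8 to 1790 with miR-148a and 323 in control. For Krt18 they were 2007 with miR-148a and 614 in control, and for Krt7 19905 with miR-148a and 6052 in control. On this scale Krt19 was the least counted of the 4 genes in both groups, and Krt7 the most.

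Divided by the length of the matching GENCODE transcript, the levels of different genes can be set side by side. The lengths used were 4094 bases for Krt7, 1958 for Krt8, 1437 for Krt18 and 1576 for Krt19. The sources used here do not give the authors' transcript models, so the long Krt7 transcript in particular may understate its level. With miR-148a the derived mean normalized counts per kb were 4862 for Krt7, 914 for Krt8, 1396 for Krt18 and 672 for Krt19, against 1478, 165, 427 and 43.3 per kb in control. The order of the levels was Krt7, Krt18, Krt8 and Krt19 in both groups. Krt18 exceeded Krt8 by 1.53 times per kb with miR-148a and by 2.59 times in control. Summed per kb, the type II genes (Krt7 and Krt8) exceeded the type I genes (Krt18 and Krt19) by 2.79 times with miR-148a and by 3.49 times in control. Krt19 made up 8.56% of the sum of the 4 genes with miR-148a and 2.05% in control, and Krt7 62.0% with miR-148a and 69.9% in control.

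**Figure D2:**
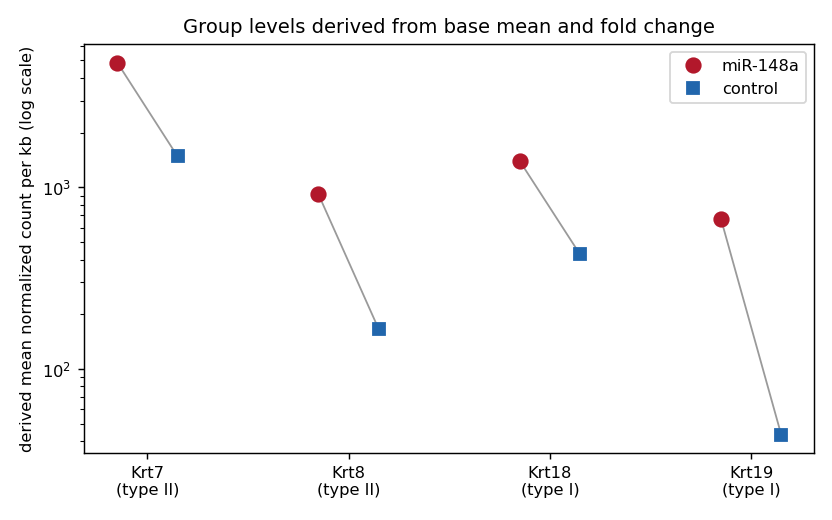
Derived mean normalized count per kb of transcript (vertical axis, log scale) of the 4 simple epithelial keratins with miR-148a (circles) and in control (squares), computed from the authors' base mean and fold change, with no error bars since no value per library was used. All 4 are higher with miR-148a, and the gap is widest for Krt19 (672 against 43.3) and narrowest for Krt18 (1396 against 427) and Krt7 (4862 against 1478).

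The simple epithelial keratins were a small part of the keratin transcripts of these cells. Over 33 keratins with an adjusted p, the 4 and 29 others from a list of each type, they took 0.746% of the derived counts per kb with miR-148a and 0.262% in control. The lists leave out 2 keratins with an adjusted p, Krt90 (0.17 ± 0.11 SE, base mean 2841) and Krt88 (0.00081 ± 0.37 SE, base mean 6.59), neither of which passed (authors' deposited table). With both the shares were 0.745% with miR-148a and 0.262% in control. Most of the rest was Krt17, Krt5 and Krt6a, listed at base means of 557335, 630448 and 504741 (authors' deposited table). This share counts Krt14, the partner of Krt5 and a defining keratin of the basal layer, at a base mean of only 40.3, that of its tested transcript. It leaves out the 19 listed keratins without an adjusted p, of which 5 had no transcript above 0. If these counts are too low, the share of the 4 genes is too high. Among genes with 2 or more transcripts listed, 73.9% of transcripts were at 0, against 34.5% for genes with 1, so that a value at 0 is no measurement of absence.

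Among all 35 keratins with an adjusted p, ordered by log2 fold change, the 4 genes took places 1 (Krt19), 2 (Krt8), 5 (Krt7) and 6 (Krt18). Between them lay Krt87, related to the hair keratins (2.36 ± 0.29 SE, base mean 64.4), and Krt75, a keratin of the hair follicle companion layer (2.001 ± 0.10 SE, base mean 1910; authors' deposited table). The next below Krt18 was the basal and bulge keratin gene Krt15, at 1.64 ± 0.30 SE (authors' deposited table). Its SE was large for a base mean of 2473, and its difference from Krt18 is smaller than that SE.

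Of the 13 tested keratins of the type I list 7 rose, 1 fell and 5 did not pass the test; their median log2 fold change was 0.25, against -0.01 over all tested genes. Over those with a base mean of 100 or more it was 0.90. The rises after Krt15 were Krt31 (1.23 ± 0.39 SE) and Krt33a (1.18 ± 0.38 SE), both hair keratins at base means of 15.3 and 7.004, Krt42 (1.07 ± 0.14 SE), Krt23 (0.98 ± 0.07 SE), the hair keratin Krt32 (0.82 ± 0.21 SE) and the wound keratin Krt17 (0.25 ± 0.06 SE), in the authors' deposited table. The 1 that fell was Krt10, of the spinous layer (-0.88 ± 0.12 SE, authors' deposited table). Krt20, a keratin of gut epithelium and Merkel cells that is often counted with the simple epithelial keratins, had a log2 fold change of -0.51 ± 0.34 SE at a base mean of 35.2 and did not pass (adjusted p = 0.273, authors' deposited table).

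Of the 16 tested keratins of the type II list 6 rose, 4 fell and 6 did not pass (median 0.04, and 0.29 over those with a base mean of 100 or more). The rises after Krt87 and Krt75 were Krt78 (0.95 ± 0.08 SE), the wound keratin Krt6a (0.64 ± 0.05 SE), the mucosal keratin Krt4 (0.60 ± 0.11 SE) and the basal keratin Krt5 (0.49 ± 0.06 SE), in the authors' deposited table. The falls were Krt77 (-2.96 ± 0.16 SE), the hair canal keratin Krt79 (-2.74 ± 0.12 SE), the spinous keratin Krt1 (-1.32 ± 0.18 SE) and Krt6b (-1.19 ± 0.09 SE), in the authors' deposited table. Krt80, strongly counted at a base mean of 58315, had a value of 0.09 ± 0.08 SE and did not pass.

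**Figure D3:**
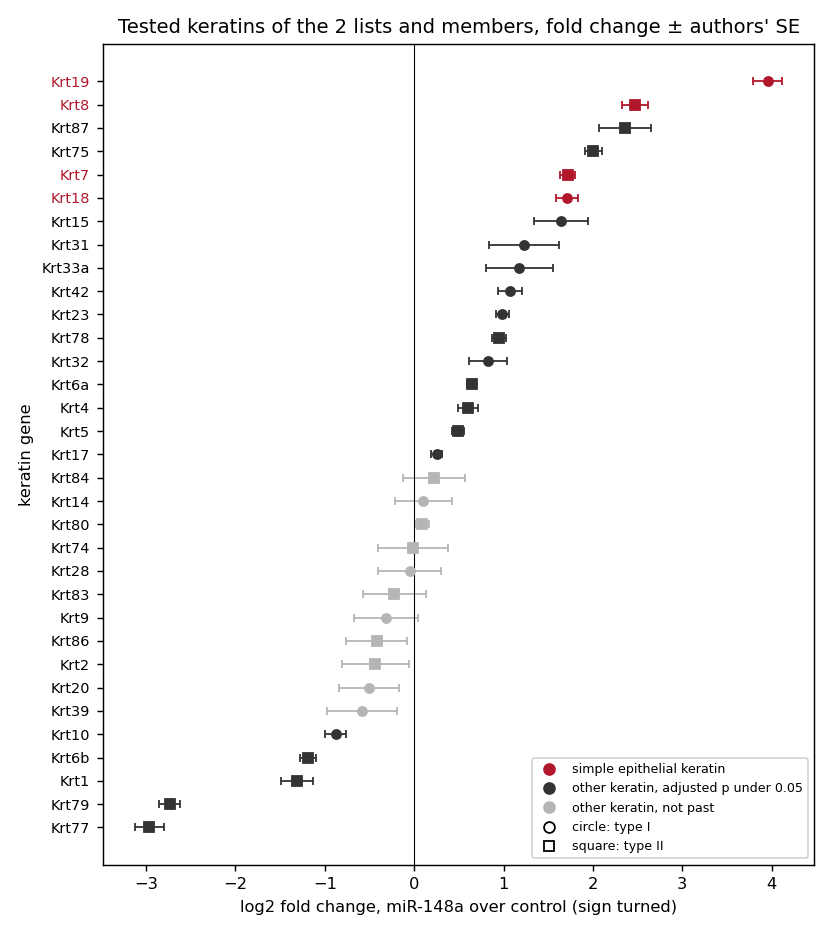
Log2 fold change (horizontal axis, miR-148a over control, sign turned) of 33 tested keratins (the 4 and those of the 2 lists, without Krt88 and Krt90) in order of size; points are the authors' values, bars the authors' SE, circles type I and squares type II. The 4 simple epithelial keratins, in red, take places 1, 2, 5 and 6, from 3.95 for Krt19 to 1.71 for Krt18, and the lowest is Krt77 at -2.96.

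**Figure D4:**
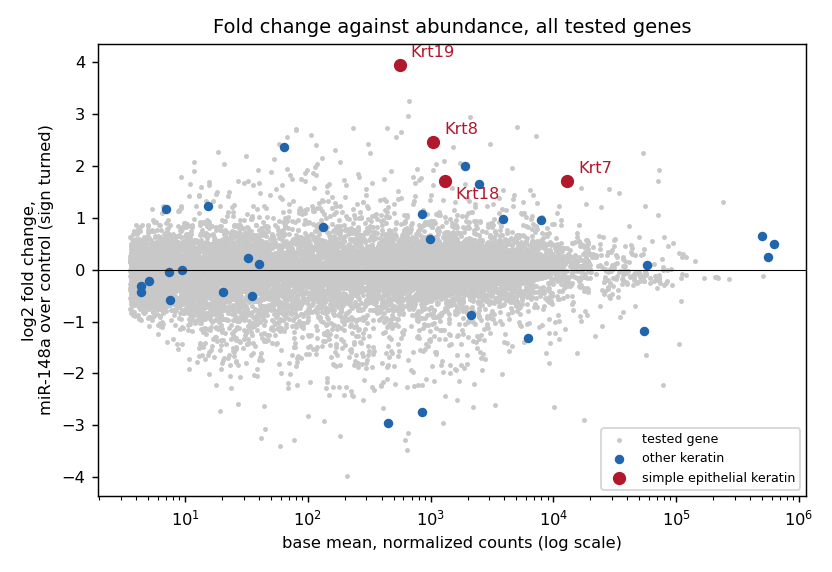
Log2 fold change (vertical axis, miR-148a over control, sign turned) against base mean (horizontal axis, normalized counts, log scale) of the 11038 tested genes. Krt19 is the highest point of all, Krt7 is the most strongly counted of the 4 (base mean 12978), and the other keratins of the 2 lists (blue) lie on both sides of 0.

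The 4 genes lie in the keratin clusters, Krt7, Krt8 and Krt18 on chromosome 15 and Krt19 on chromosome 11. Krt18 is the one type I gene that lies beside the type II cluster, next to its partner Krt8. The 2 nearest protein-coding genes on each side of the 4 (12 genes besides the 4 themselves) did not all share their direction: 3 rose, 2 fell, 5 did not pass and 2 had no adjusted p. Beside Krt7, Krt87 rose while Krt80 did not pass. Beside Krt8 and Krt18, Krt78 rose, while Krt79 and Eif4b, a translation initiation factor gene (-0.35 ± 0.06 SE, authors' deposited table), fell. Beside Krt19, Krt15 rose, and Krt9 and the listed Krt14 transcript did not pass.

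The promoters of 3 of the 4 genes could be matched in RefSeq (GRCm38.p6) and are shown because these genes lay on the same side in the comparison. Each line gives the 250 bases before the annotated start, 5' to 3' on the gene's strand. Capitals mark every match on either strand to 9 motifs: TGACTCA (AP-1), GGGCGG (GC box of Sp and KLF factors), CCACACCC (KLF), ACCGGAAG (ETS), AACCNGTT (Grainyhead-like), GCCNNNGGC (AP-2), CACCTG (E-box of Snail and Zeb repressors), CCAAT and TATAAA.
Krt7, chr15:101412153-101412402, plus strand: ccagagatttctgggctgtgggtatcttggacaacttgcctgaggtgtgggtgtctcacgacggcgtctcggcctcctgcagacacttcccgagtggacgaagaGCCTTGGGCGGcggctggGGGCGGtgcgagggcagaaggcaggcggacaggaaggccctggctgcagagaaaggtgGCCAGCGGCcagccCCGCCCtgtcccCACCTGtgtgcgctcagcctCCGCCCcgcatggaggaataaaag
Krt8, chr15:102004343-102004592, minus strand: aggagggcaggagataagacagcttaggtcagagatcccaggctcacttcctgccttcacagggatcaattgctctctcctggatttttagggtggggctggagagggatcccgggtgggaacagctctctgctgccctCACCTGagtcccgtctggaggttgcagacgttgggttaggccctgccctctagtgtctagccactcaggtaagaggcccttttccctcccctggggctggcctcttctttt
Krt18, chr15:102027966-102028215, plus strand: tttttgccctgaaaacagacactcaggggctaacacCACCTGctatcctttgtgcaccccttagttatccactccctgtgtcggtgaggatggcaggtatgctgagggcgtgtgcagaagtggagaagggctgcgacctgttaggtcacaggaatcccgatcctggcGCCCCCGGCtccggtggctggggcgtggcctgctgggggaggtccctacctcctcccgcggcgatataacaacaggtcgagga

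The CACCTG E-box was the 1 motif of the 9 found in all 3 windows, once in each, at 44 bases before the start in Krt7, 111 in Krt8 and 214 in Krt18. It was present in 17.2% of all 32851 promoter windows of this length. Krt7 held 4 GC boxes, the motif of 32.7% of all windows, and the first of them overlaps a GCCNNNGGC match. GCCNNNGGC had 2 matches in Krt7 and 1 in Krt18, and was present in 13.7% of all windows. TGACTCA (4.46% of all windows), CCACACCC (3.20%), ACCGGAAG (1.72%), AACCNGTT (1.79%), CCAAT (33.8%) and TATAAA (12.4%) had no match in these 3 windows. A match is a string of letters and no evidence of binding.

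Genes of transcription factors tied to simple epithelial genes showed no common direction. Of 21 tested, 4 rose, 5 fell and 12 did not pass (median -0.03, and 0.04 at a base mean of 100 or more), none by more than 2-fold. In the authors' deposited table the rises were Ovol1 (0.83 ± 0.07 SE), Grhl3 (0.72 ± 0.09 SE), Klf5 (0.51 ± 0.08 SE) and Klf4 (0.25 ± 0.07 SE), all regulators of epithelial differentiation. The falls in the authors' deposited table were the AP-1 subunits Jun (-0.70 ± 0.08 SE), Fosl1 (-0.52 ± 0.17 SE) and Fos (-0.33 ± 0.08 SE), the E-box repressor Snai2 (-0.33 ± 0.07 SE) and the ETS factor Ehf (-0.19 ± 0.06 SE). Ehf (authors' adjusted p = 0.0138) would not pass an adjusted p of 0.01. Ets2 and Fosl2, the most strongly counted of the list, had values of -0.03 ± 0.06 SE and 0.04 ± 0.07 SE in the authors' deposited table. The other 10 of the 31 listed had no adjusted p, among them Elf5, Gata3 and Trp63, listed at 0.

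Genes of proteins that anchor or bind keratin filaments gave calls in both directions. Of 10 tested genes of plakins and desmosomal proteins 2 rose, 2 fell and 6 did not pass (median -0.12): periplakin (Ppl) rose by 1.06 ± 0.09 SE and epiplakin (Eppk1), a plakin that binds keratins 8 and 18, fell by 1.60 on the log2 scale (-1.60 ± 0.09 SE), in the authors' deposited table. Plakoglobin (Jup) rose by 0.33 ± 0.06 SE, and desmoplakin (Dsp), which ties keratins to desmosomes, fell at -0.18 ± 0.06 SE (authors' deposited table, adjusted p = 0.0161), which an adjusted p of 0.01 would not pass. Of 14 tested partners, chaperones and proteases of keratins 8, 18 and 19, 2 rose, 2 fell and 10 did not pass (median -0.06). The rises were the 14-3-3 gene Ywhae (0.49 ± 0.06 SE) and the small heat shock gene Hspb1 (0.31 ± 0.06 SE), and the falls were Egfr (-0.47 ± 0.09 SE) and Sfn, the 14-3-3 protein of stratified epithelia (-0.21 ± 0.06 SE), in the authors' deposited table. Of 9 other intermediate filament genes 3 rose, 1 fell and 5 did not pass (median 0.14). Lmna (0.27 ± 0.06 SE), Lmnb1 (0.44 ± 0.10 SE) and Nes (0.76 ± 0.27 SE) rose and the mesenchymal Vim fell (-0.29 ± 0.09 SE, authors' deposited table). Nes (authors' adjusted p = 0.0157) would not pass an adjusted p of 0.01.

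Lists of genes from cell types and structures that make simple keratins gave mixed counts. Of 19 tested surface and junction genes of simple and glandular epithelia 7 rose, 3 fell and 9 did not pass (median 0.03, and -0.01 at a base mean of 100 or more). In the authors' deposited table the claudin genes Cldn7 (2.55 ± 0.29 SE, base mean 67.9), Cldn3 (1.43 ± 0.10 SE, base mean 4784) and Cldn8 (1.43 ± 0.39 SE, base mean 10.7) rose more than 2-fold, and Cldn4 rose by 0.34 ± 0.07 SE. The adhesion molecule gene Epcam, a general marker of simple epithelia, fell 2.32-fold (-1.21 ± 0.06 SE, base mean 9266, authors' deposited table). Clu (-0.80 ± 0.10 SE, base mean 1370) and Cdh1 (-0.21 ± 0.06 SE, base mean 36792) fell by less than 2-fold (authors' deposited table). Of 10 periderm genes 6 rose, 3 fell and 1 did not pass (median 0.32). Cldn6 rose 4.11-fold (base mean 20.8, authors' deposited table), and the list shares Krt4, Krt6a, Krt17, Grhl3 and Sfn with lists above.

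The other markers of Merkel cells showed no change past the test. Of 8 tested, 0 rose and 0 fell, with a median of -0.28 and log2 fold changes from -0.65 to 0.13, and the most strongly counted were Krt20 and Piezo2, a channel of touch sensing, listed at 35.2 and 34.6 (base means, authors' deposited table). At an unadjusted p under 0.05 the count was 0 of 8 as well. The summed base mean of the 8 genes was 167, without correction for transcript length. The part of Merkel cells in the keratin differences was not tested. The fate-determining factor gene Atoh1 had 0.09 ± 0.36 SE (base mean 24.0, authors' deposited table). The SEs of the 8 genes ran from 0.33 to 0.39, and the ninth gene of the list, Rab3c, was listed at 0.

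Genes of the hair follicle bulge and outer root sheath, where Krt19 is also made, gave calls in both directions: of 7 tested 3 rose and 2 fell (median -0.12). Over those with a base mean of 100 or more 2 rose and 1 fell, and the median turned to 0.68. In the authors' deposited table Krt15 and Lhx2 (1.15 ± 0.25 SE) rose, as did Foxc1 (0.68 ± 0.08 SE), and the stem cell receptor gene Lgr5 (-1.68 ± 0.33 SE) and Sox9 (-0.63 ± 0.08 SE) fell. Sebaceous gland genes also gave both, with 3 higher and 4 lower of 10 tested (median -0.22). In the authors' deposited table Fabp4 (1.56 ± 0.15 SE), Soat1 (0.91 ± 0.15 SE) and Prdm1 (0.22 ± 0.08 SE) rose, and Krt79, Cidea (-2.21 ± 0.09 SE), the lipid droplet gene Plin2 (-1.23 ± 0.09 SE) and Scd1 (-0.51 ± 0.08 SE) fell.

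**Figure D5:**
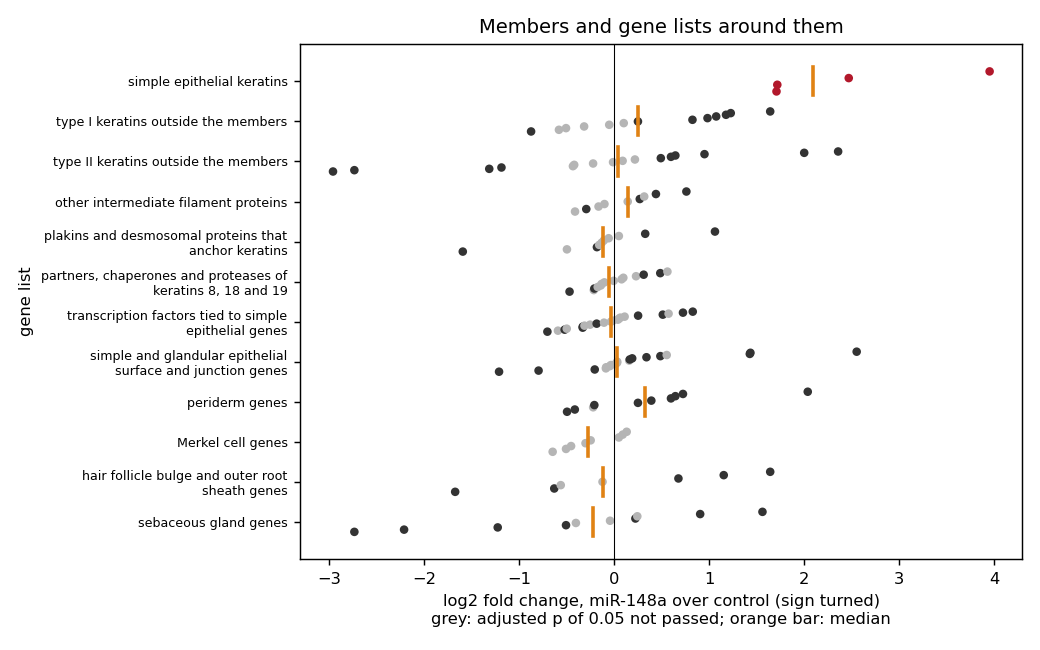
Log2 fold changes (horizontal axis, miR-148a over control, sign turned) of the tested genes of each list (rows); grey points did not pass an adjusted p of 0.05 and the orange bar is the list's median. The 4 simple epithelial keratins (red), chosen with these values known, lie from 1.71 to 3.95. The other lists have medians from -0.28 (Merkel cell genes) to 0.32 (periderm genes). Their single genes reach 2.55 (surface and junction genes), 2.36 (type II keratins) and 2.04 (periderm genes) at the high end, and -2.96 (type II keratins) at the low end.

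Markers of other cells in such a culture were also listed. Each gene is given by 1 transcript, so a low base mean or a value at 0 here need not be the level of the gene. Of 7 keratinocyte markers 6 had an adjusted p: Krt5 rose and Dsg3 fell, 4 did not pass and had base means under 50, and Trp63 was listed at 0. Of 8 fibroblast markers 4 fell and 1 rose (summed base mean 22977), and Col1a1, Col1a2, Col3a1 and Thy1 were those that fell. Of 8 immune markers 4 were tested and 2 fell (74.8), with Ptprc, Cd74 and Cd207 at 0. Of 7 melanocyte markers 4 were tested and 1 fell (15003), with Tyrp1 and Kit at 0. Of 7 endothelial markers 3 were tested, of which Kdr and Flt1 rose and Vwf fell (593), with Pecam1, Tek and Emcn at 0. Of 6 markers of mesothelium, a simple epithelium with these keratins, 2 were tested and rose (293). They were Upk1b (base mean 281) and Upk3b (base mean 12.9). Wt1, at a base mean of 2.35, had no adjusted p, and Msln, Lrrn4 and Gpm6a were at 0. Of 7 sweat gland markers 6 were tested and 1, Foxc1, rose (8214.1), with Foxi1 at 0. Of 10 sebaceous markers 5 were tested, 2 rose and 2 fell (17142). The part of any such cells in the keratin differences was not tested.

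The authors' GO table names no gene. Its one category with keratin in its name, keratinocyte development, held 1 changed gene of 4 (p = 0.448) in the authors' deposited table, and epithelial cell differentiation held 0 of 1. Categories of 4 genes and 1 gene are too small to say whether such genes were over-represented.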

How the data were processed

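RNA sequencing compared 3 libraries with pro-miR-148a and 3 with a control small RNA, grouped by their titles. The submitters' processing notes name DESeq2 and mm9, with no version or role; the sources used here give no aligner, read counter or annotation. What the authors deposited, per the file headers, is a base mean signal for each transcript (its average normalized count), a log2 fold change and its SE, a Wald score, and p-values before and after adjustment. The authors' deposited GO table holds counts of genes per category and p-values. Library totals and values per library are unknown, so no test was run here, and no interval for counting error is given.

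The members and lists were chosen with earlier results of these data known. Transcripts were paired with symbols by RefSeq accession (42739 of 42885 matched, GRCm38.p6), and a gene was taken by its transcript with the highest base mean among those with an adjusted p. The table has an adjusted p from a base mean of 3.56 upward. Whether fold changes at low base means were drawn toward 0 is not known, and ranks, folds over 2 and values of rarely counted genes depend on it. A gene passed at the authors' adjusted p of 0.05. As mm9 differs from the annotation used, coordinates are given only with RefSeq sequences of GRCm38.p6. UTRs of at least 20 bases and transcript lengths are from GENCODE M21. Intervals are the estimate ± 1.96 SE. The site comparison and the Benjamini-Hochberg adjustment were tested on simulated data (Python 3.11.15, pandas 2.3.3, numpy 2.4.6, scipy 1.17.1). The naming rule took all members, all tested keratins of the 2 lists and, per list, genes that passed with a fold over 2 or, where none did, the 2 with the highest base mean. Other genes of lists and Eif4b, Krt88 and Krt90 were named after their values were seen. Protein sequences were not analysed here. 1 gene of a list is not reported here by name.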

Additional observations from a re-analysis of the deposited data

How the results depend on the processing

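All 16 values and counts of the 4 keratins under the alternatives stayed on the same side, which their size had fixed in advance. Their adjusted p-values in the authors' comparison were 2.17e-43 or less and their folds 3.27 or more. An adjusted p of 0.01, adjustment over 1 transcript per gene, an added fold of 2 and subtraction of the median of all tested genes (-0.01) could therefore change no call. A mean over tested transcripts could change nothing since each has 1 tested transcript. These 16 are no support for the differences. The difference of the 8mer genes, which sets the sign, was -0.12, and -0.16 with the shortest 3' UTR and -0.17 at a base mean of at least 100. Of 99 list values 5 were labelled as moved, but some counts that changed were labelled as the same and are given below. With Krt88 and Krt90, added after the data were seen, the type II list still had 6 higher and 4 lower (median 0.04). With a base mean of at least 100 the medians were 0.90 for other type I keratins, 0.29 for other type II keratins and 0.68 for hair follicle genes, of which 1 fell; transcription factors had 0.04 and surface genes -0.01, so that 3 medians changed sign. No Merkel cell gene reached that base mean. At that base mean 5 other type I keratins rose instead of 7, and 5 other type II keratins instead of 6. Surface genes that rose went from 7 to 5, periderm genes from 6 to 5, and hair follicle and other intermediate filament genes from 3 to 2. At an adjusted p of 0.01, 1 plakin gene fell instead of 2, and 4 transcription factor genes instead of 5. There 5 surface genes rose instead of 7, and 2 other intermediate filament and 2 sebaceous genes instead of 3. With the median subtracted, 5 transcription factor genes rose instead of 4. The cause was not tested, beyond fewer genes entering. No paired analysis was possible because the table has no value per library, and for the same reason no replicate could be left out. Low base means limit what could be seen in Merkel and mesothelial markers.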
